A study of Arabidopsis thaliana with 10 samples.

Results

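The genes described here are 10 cysteine-rich receptor-like kinases (CRKs) of Arabidopsis, namely CRK5 (AT4G23130), CRK6 (AT4G23140), CRK7 (AT4G23150), CRK10 (AT4G23180), CRK11 (AT4G23190), CRK13 (AT4G23210), CRK14 (AT4G23220), CRK28 (AT4G21400), CRK29 (AT4G21410) and CRK36 (AT4G04490). They were taken by locus identifier from a count table of 33602 loci, and all 10 were found in it. They belong to a family of 43 CRK genes listed here.

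The libraries came from whole seedlings of 2 transgenic Col-0 lines at 8 d of age. P1-12 carries the dCas9-KRAB transcription repressor behind a dexamethasone (Dex)-inducible promoter, together with the P1 sgRNA against MORF2 (a plastid RNA-editing factor) behind the U6-26 promoter, and KRAB carries the inducible repressor without an sgRNA. P1-12 seedlings were grown on 0.1% DMSO, 0.025 μM Dex or 0.25 μM Dex, and KRAB seedlings on 0.25 μM Dex or 0.1% DMSO, with 2 libraries in each of the 5 groups. Both lines, controls included, hold the repressor gene and each genotype is represented by 1 transgenic line. The libraries of a group are described in the study as biological replicates.

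Depth was 9139050 to 12965935 counts in 8 libraries, 29749669 in replicate 2 of KRAB (+DMSO) and 40544617 in replicate 1 of KRAB (+0.25 μM Dex). MORF2 had 51.7 and 55.5 CPM (counts scaled to library size) in P1-12 (+0.25 μM Dex), against 112 and 117 CPM in P1-12 (+DMSO), a log2 fold change of −1.09 (SE 0.07), and −0.10 at 0.025 μM Dex, which did not pass the test. The summed level of 13 root markers was 166 to 194 CPM in P1-12 (+0.25 μM Dex), against 140 to 146 CPM in P1-12 (+DMSO), and that of 12 shoot markers was 184 to 187 CPM, against 132 to 142 CPM. A few genes, picked out after their values were seen, carried both sums. The root aquaporin gene TIP2;3 averaged 59.0 CPM in P1-12 (+0.25 μM Dex), against 14.8 CPM in P1-12 (+DMSO), and without it the root sums were 114 to 129 CPM, against 123 to 132 CPM. SPCH and TMM, genes of the stomatal lineage, averaged 50.7 and 39.3 CPM, against 6.90 and 19.4 CPM, and without them the shoot sums were 92.8 to 98.1 CPM, against 106 to 115 CPM. GL1, a trichome regulator among the shoot markers, was at 0 in 1 library, and no other marker was at 0 in any library. Whether the marker levels play a part in the CRK values was not tested, and in whole seedlings a change in the share of a cell type and a change in RNA per cell cannot be told apart.

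CRKs sit in the plasma membrane. Outside the cell they carry a pair of DUF26 domains with conserved cysteines, and inside the cell a serine/threonine kinase, and many CRK genes are known to respond to reactive oxygen, salicylic acid and pathogens. In Arabidopsis, CRK28 is known to associate with BAK1, the shared co-receptor of immune receptors, CRK36 acts in abscisic acid and immune signalling, CRK5 in abscisic acid responses, CRK6 and CRK7 in responses to extracellular reactive oxygen, and overexpressed CRK13 raises salicylic acid-dependent defence.

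All 10 genes lie on chromosome 4. CRK5, CRK6, CRK7, CRK10, CRK11, CRK13 and CRK14 are 7 of the 20 CRK genes in a cluster between 12117491 and 12191704 (TAIR10.1). CRK28 (11398857 to 11402180) and CRK29 (11401711 to 11405235) are neighbours on the minus strand whose annotated spans share 470 bases, and CRK36 (2231717 to 2234689) stands apart from both. CRK10 and CRK11 converge from opposite strands and share 32 bases at their ends. CRK28 and CRK29 lie on the same strand, so strand alone cannot assign reads from the stretch they share. For CRK10 and CRK11 it could, but the strand setting of the counting is not given in the sources used here. How reads from either stretch were counted is therefore not known. Coding sequences of the 45 pairs of these genes were 52.6% to 85.0% identical (median 57.1%), with CRK28 and CRK29 the most alike and CRK6 and CRK7 at 80.0%. Of the 50-base words in the exons of each gene, 22% in CRK6 and 15.4% in CRK13 recurred elsewhere in the genome, mostly in CRK8 and in CRK22, against 1.08% or less in each of the other 8 genes, so the counts of CRK6 and CRK13 are uncertain where reads match 2 genes.

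The 250 bases before the annotated start are shown for 5 genes with 2 of the dose patterns described below. CRK36, CRK7 and CRK6 stood out only at 0.25 μM Dex, and CRK10 and CRK11 had their highest level at 0.025 μM Dex. The windows come from the RefSeq TAIR10.1 sequence, at chr4:2234690-2234939 (minus strand) for CRK36, chr4:12125414-12125663 (plus) for CRK7, chr4:12121119-12121368 (plus) for CRK6, chr4:12137745-12137994 (plus) for CRK10 and chr4:12143859-12144108 (minus) for CRK11. Capitals mark TTGAC, the core of the W-box bound by WRKY factors, or GTCAA, its reverse complement.
CRK36: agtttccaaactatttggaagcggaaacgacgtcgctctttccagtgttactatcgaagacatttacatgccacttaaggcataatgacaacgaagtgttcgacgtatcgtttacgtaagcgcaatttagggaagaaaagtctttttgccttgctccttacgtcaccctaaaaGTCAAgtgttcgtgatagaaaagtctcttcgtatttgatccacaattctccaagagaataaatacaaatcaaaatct
CRK7: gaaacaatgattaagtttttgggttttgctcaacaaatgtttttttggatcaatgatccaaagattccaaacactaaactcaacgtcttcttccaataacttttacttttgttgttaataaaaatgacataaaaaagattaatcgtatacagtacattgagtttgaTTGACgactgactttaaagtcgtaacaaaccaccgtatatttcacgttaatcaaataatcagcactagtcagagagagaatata
CRK6: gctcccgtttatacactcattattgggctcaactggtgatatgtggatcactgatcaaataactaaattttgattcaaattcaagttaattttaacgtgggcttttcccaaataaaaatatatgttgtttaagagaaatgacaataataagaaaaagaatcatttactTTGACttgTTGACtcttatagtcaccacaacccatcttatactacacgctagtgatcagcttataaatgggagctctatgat
CRK10: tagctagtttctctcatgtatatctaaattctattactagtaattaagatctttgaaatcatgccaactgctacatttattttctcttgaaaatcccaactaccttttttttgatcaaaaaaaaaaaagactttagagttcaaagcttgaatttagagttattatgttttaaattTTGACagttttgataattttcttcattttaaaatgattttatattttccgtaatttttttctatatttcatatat
CRK11: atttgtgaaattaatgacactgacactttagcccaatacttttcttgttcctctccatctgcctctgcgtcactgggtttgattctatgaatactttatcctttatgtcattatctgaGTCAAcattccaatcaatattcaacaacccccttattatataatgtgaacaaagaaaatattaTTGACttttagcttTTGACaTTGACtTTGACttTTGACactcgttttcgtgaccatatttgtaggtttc
CRK11 held 6 copies, 5 of them on the strand shown and 4 of these with their first base 36 to 55 bases before the start, while CRK6 held 2 and CRK36, CRK7 and CRK10 held 1 each. Of all 10 windows, 8 had at least 1 copy on either strand and 4 at least 2, against 44.9% and 14.1% of 27443 protein-coding promoters of the same length. The other 33 CRK genes had shares of 69.7% and 39.4%. The motif overlaps TGACG, the TGA-factor core, wherever TTGACG occurs, and TGACG was present in 18.6% of all promoters. The window of CRK28 lies inside CRK29 and that of CRK29 inside a locus annotated as a miscellaneous RNA, and neither is shown. A match describes these letters and is no measure of binding.

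The 10 genes fell into different dose patterns in P1-12. CRK28 and CRK29 were higher at 0.025 μM Dex and higher again at 0.25 μM Dex, CRK36, CRK7 and CRK6 stood out only at 0.25 μM Dex, CRK10 and CRK11 peaked at 0.025 μM Dex, CRK5 and CRK13 were highest in P1-12 at 0.25 μM Dex with wide spread in the controls, and CRK14 passed no test. The plot of CPM by library shows all 100 values.

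**Figure D1:**
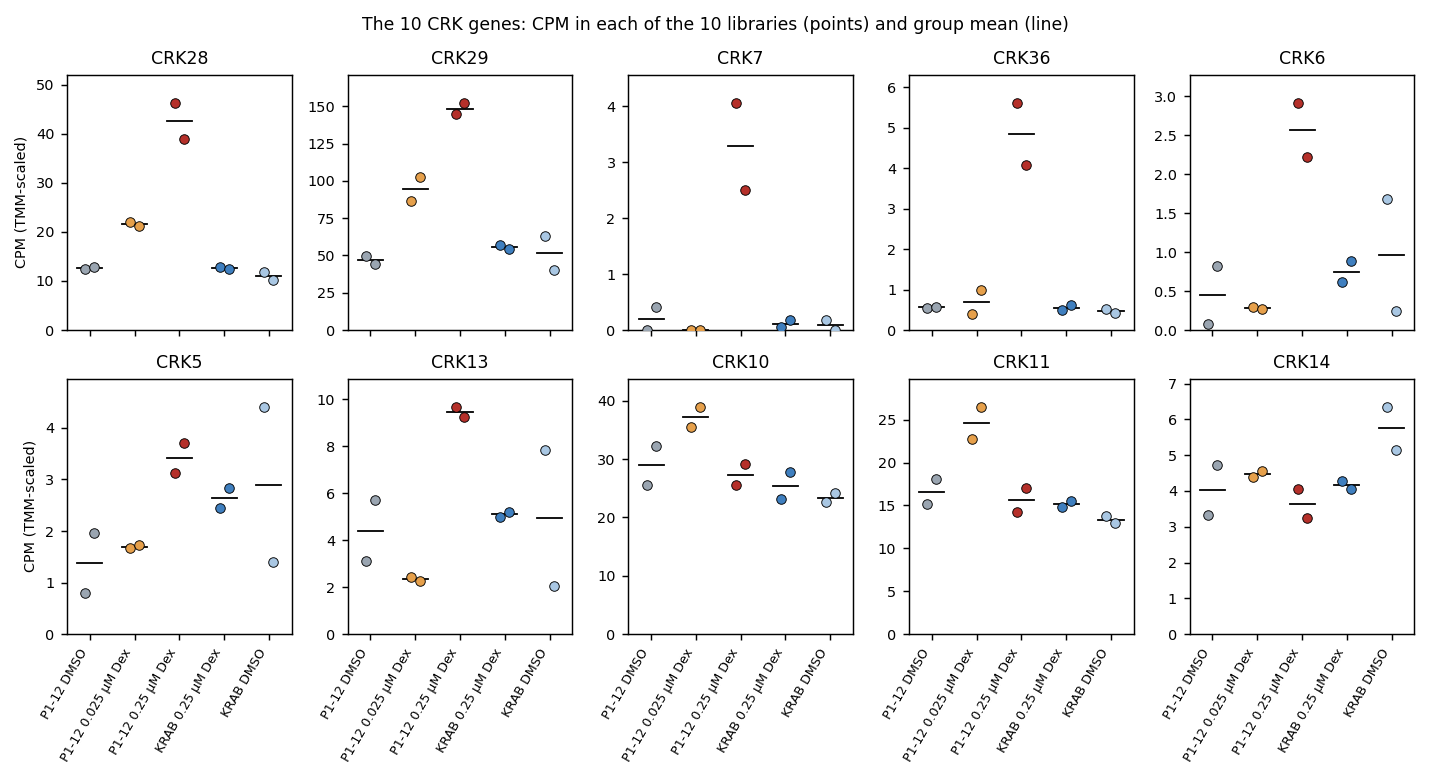
CPM of the 10 CRK genes, each panel on its own linear axis from 0, with 1 point per library and a line at the mean of the 2 libraries of a group; P1-12 groups run from DMSO to 0.25 μM Dex, followed by KRAB with Dex and KRAB with DMSO. Both P1-12 (+0.25 μM Dex) libraries lie above the 8 others for CRK28, CRK29, CRK7, CRK36, CRK6 and CRK13.

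CRK28 had 12.4 and 12.8 CPM in P1-12 (+DMSO), 22.1 and 21.3 CPM at 0.025 μM Dex, and 46.3 and 39.0 CPM at 0.25 μM Dex. In KRAB it had 12.8 and 12.4 CPM with 0.25 μM Dex and 11.9 and 10.3 CPM with DMSO. The 3 P1-12 groups did not overlap, and all 4 KRAB libraries were level with P1-12 (+DMSO) or just under it. In P1-12, CRK28 was 3.38-fold higher at 0.25 μM Dex than with DMSO (95% interval 2.85 to 4.01, log2 fold change 1.76, SE 0.11, edgeR quasi-likelihood adjusted p = 1.29e-08). At 0.025 μM Dex it was 1.72-fold higher (1.43 to 2.06, adjusted p = 0.00124), and between the doses 1.97-fold higher at 0.25 μM (1.68 to 2.32, adjusted p = 4.76e-06).

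CRK29, the close paralogue next to CRK28, had 49.9 and 44.5 CPM in P1-12 (+DMSO), 86.4 and 103 CPM at 0.025 μM Dex, and 145 and 152 CPM at 0.25 μM Dex. In KRAB it had 57.3 and 54.3 CPM with 0.25 μM Dex and 63.3 and 40.3 CPM with DMSO. Again the 3 doses did not overlap in P1-12, and the KRAB libraries were all below the lower dose. CRK29 was 3.16-fold higher at 0.25 μM Dex (95% interval 2.51 to 3.97, adjusted p = 4.74e-07) and 2.00-fold higher at 0.025 μM Dex (1.59 to 2.53, adjusted p = 0.00115) than in P1-12 (+DMSO), and the step between the doses was 1.58-fold (1.27 to 1.96, adjusted p = 0.00203). Per kilobase of exon, CRK29 was 3.10 to 5.27 times as abundant as CRK28 in the 10 libraries. The exons of the pair share 30 words of 50 bases, out of 2804 in CRK28 and 2782 in CRK29.

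CRK28 and CRK29 were the only ones of the 6 genes tested with the study's filter (CPM above 2 in at least 9 libraries) to reach its threshold for a significantly differentially expressed gene (SDEG, a log2 change of 1 or more in either direction with an adjusted p under 0.0001) at 0.25 μM Dex, a threshold that 5.93% of all tested genes reached as higher (5.86% with the lower filter described next). In every alternative fit that was run, leaving out any 1 library included, both stayed higher at both doses, with log2 fold changes of 1.63 to 1.88 for CRK28 and 1.58 to 1.74 for CRK29 at 0.25 μM Dex. Against KRAB at the same 0.25 μM Dex, CRK28 was 3.38-fold (2.88 to 3.97) and CRK29 2.66-fold (2.13 to 3.32) higher in P1-12, both SDEGs, as were 5.65% of all tested genes as higher (5.8% with the lower filter). The 5 genes outside the lists used here whose log2 CPM followed CRK28 most closely over the 10 libraries were AT5G66770 (Pearson r 0.996), CSLE1 (0.995), SLAH2 (0.994), AT1G01490 (0.993) and CYP71B19 (0.993). These correlations describe 10 libraries in 5 groups, out of 16721 genes, and all points of a group share a line and a dose.

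**Figure D2:**
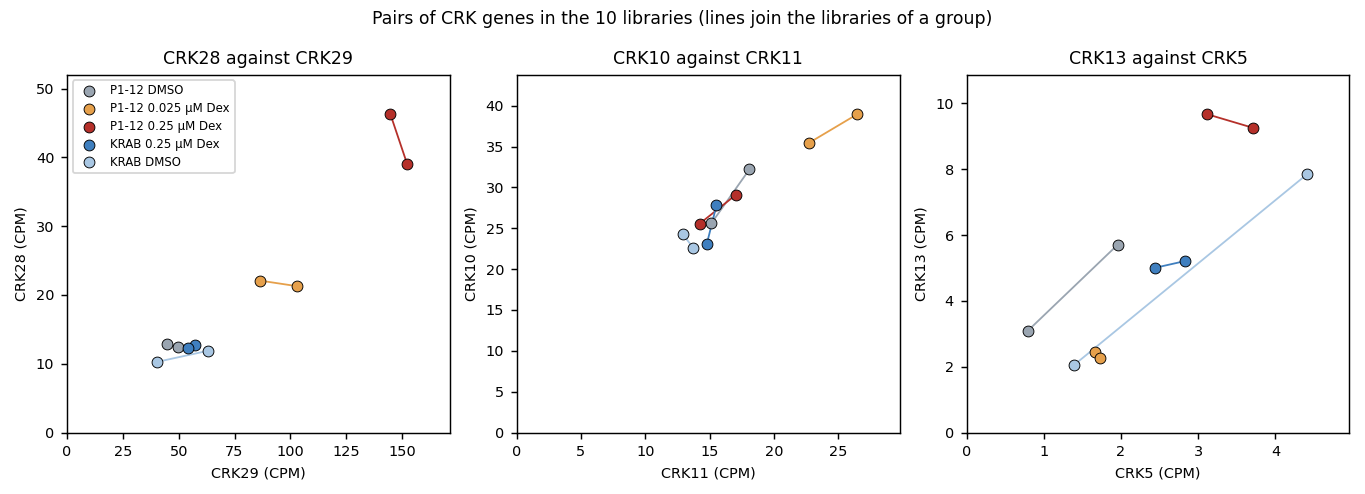
CPM of CRK28 against CRK29, of CRK10 against CRK11 and of CRK13 against CRK5 in the 10 libraries, on linear axes from 0, with a line joining the 2 libraries of a group. The first pair separates the P1-12 doses in order, the second has P1-12 (+0.025 μM Dex) at the top right, and in the third the 2 KRAB (+DMSO) libraries lie far apart, at 4.41 and 1.39 CPM of CRK5.

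CRK36, CRK7 and CRK6 were too low for the study's filter and were tested with CPM above 0.5 in at least 2 libraries, a fit of 20742 genes. CRK36 had 0.55 and 0.57 CPM in P1-12 (+DMSO), 0.39 and 1.00 CPM at 0.025 μM Dex, and 5.62 and 4.08 CPM at 0.25 μM Dex. In KRAB its level was 0.49 and 0.62 CPM with 0.25 μM Dex and 0.53 and 0.42 CPM with DMSO. The 2 libraries at the high dose were at least 4 times as high as any of the 8 others, which overlapped with each other. CRK36 was 8.61-fold higher at 0.25 μM Dex than in P1-12 (+DMSO) (95% interval 4.70 to 15.8, adjusted p = 1.67e-05, an SDEG), 6.90-fold higher than at 0.025 μM Dex (3.78 to 12.6, adjusted p = 6.4e-05) and 9.18-fold higher than in KRAB with the same dose (5.30 to 15.9, adjusted p = 4.74e-06). At 0.025 μM Dex its log2 fold change of 0.32 was not distinguishable from 0 (interval −0.88 to 1.52).

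CRK7 was nearly silent outside the high dose. It had 0 and 5 raw counts in P1-12 (+DMSO), 0 and 0 at 0.025 μM Dex, and 39 and 27 at 0.25 μM Dex. KRAB had 2 and 2 counts with 0.25 μM Dex and 2 and 0 with DMSO. In CPM, both libraries at the high dose, at 4.06 and 2.50, were above every other, of which the highest had 0.41. Only those 2 libraries carried CRK7 past the filter, so a difference was built into its being tested. In edgeR its log2 value was 3.99 (SE 0.77) with an adjusted p of 0.00066 against P1-12 (+DMSO) and 5.26 (SE 0.78) with an adjusted p of 7.26e-05 against KRAB (+0.25 μM Dex). With DESeq2 the same contrasts gave 4.03 (adjusted p = 0.123) and 4.99 (adjusted p = 0.0515) and lost their calls, over alternatives whose adjusted p ran from 5.97e-08 to 0.123 and from 2.11e-12 to 0.0515. Without P1-12 (+DMSO) replicate 1 the first value was 3.00, and without replicate 2 that control has no counts and the fitted 8.75 is not a bound. The second ran from 4.16 to 5.86 on leaving out 1 library. Set against a floor of 3 counts over the 2 libraries at 0.025 μM Dex, the level at 0.25 μM Dex was 22.9-fold higher. This value leaves out the error of the high-dose counts. Pooled over libraries, the 66 counts at the high dose were 16.1 times the level of the 5 counts in P1-12 (+DMSO) (exact 95% interval 6.56 to 51.2, counting error only), 41.9 times that of the 4 counts in KRAB (+0.25 μM Dex) (15.6 to 158) and 64.8 times that of the 2 counts in KRAB (+DMSO) (17.2 to 546). With each library weighted equally these ratios were 16.1, 29.0 and 37.2, and both counts of KRAB (+DMSO) were in its replicate 1, the shallower library.

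CRK6, which follows CRK5 head to head with 1148 bases between their starts, had 0.079 and 0.82 CPM in P1-12 (+DMSO), 0.29 and 0.27 CPM at 0.025 μM Dex, and 2.91 and 2.22 CPM at 0.25 μM Dex. KRAB had 0.62 and 0.88 CPM with 0.25 μM Dex and 1.67 and 0.24 CPM with DMSO. The high dose was above all other libraries, but the control pairs spread 10.3-fold in P1-12 and 6.87-fold in KRAB. CRK6 was 5.78-fold higher at 0.25 μM Dex than in P1-12 (+DMSO) (95% interval 1.83 to 18.2, adjusted p = 0.0128), 8.97-fold higher than at 0.025 μM Dex (2.44 to 33.0, adjusted p = 0.00868) and 3.71-fold higher than in KRAB (+0.25 μM Dex) (1.42 to 9.66, adjusted p = 0.0219). The first call was lost without P1-12 (+DMSO) replicate 1 (log2 fold change 1.67) or P1-12 (+0.25 μM Dex) replicate 1 (2.34), and without P1-12 (+DMSO) replicate 2 the value was 4.90. The second was lost without either library at 0.025 μM Dex (3.22 and 3.11), and the third without P1-12 (+0.25 μM Dex) replicate 1 (1.70) or KRAB (+0.25 μM Dex) replicate 1 (1.55). CRK8, the gene that shares sequence with CRK6 and was looked up for that reason after its values were seen, had 0.074 to 0.65 CPM over all libraries.

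CRK13 had 3.09 and 5.71 CPM in P1-12 (+DMSO), 2.44 and 2.27 CPM at 0.025 μM Dex, and 9.67 and 9.26 CPM at 0.25 μM Dex. KRAB had 5.01 and 5.21 CPM with 0.25 μM Dex and 7.84 and 2.05 CPM with DMSO. The libraries at the high dose were the highest, while the low dose lay under both P1-12 controls. CRK13 was 2.16-fold higher at 0.25 μM Dex than in P1-12 (+DMSO) (95% interval 1.14 to 4.10, adjusted p = 0.0396) and 4.02-fold higher than at 0.025 μM Dex (1.92 to 8.44, adjusted p = 0.00401). The first call was lost without P1-12 (+DMSO) replicate 1 (log2 fold change 0.73), without P1-12 (+0.25 μM Dex) replicate 1 (1.08) or replicate 2 (1.15), and with DESeq2 (1.12, adjusted p = 0.141, over alternatives from 1.6e-06 to 0.243). Against KRAB (+0.25 μM Dex) it was 0.90 (SE 0.39, adjusted p = 0.0598), which passed only with no filter (0.91, adjusted p = 2.85e-05) and in the fit of those 2 groups (0.91, adjusted p = 0.000729). CRK22, whose sequence CRK13 shares in part, had 21.4 to 28.4 CPM in all libraries and was likewise looked up after its values were seen.

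CRK5 had 0.79 and 1.96 CPM in P1-12 (+DMSO), 1.66 and 1.73 CPM at 0.025 μM Dex, and 3.12 and 3.71 CPM at 0.25 μM Dex. KRAB had 2.44 and 2.83 CPM with 0.25 μM Dex and 4.41 and 1.39 CPM with DMSO. The high dose was above the other P1-12 libraries but not above KRAB (+DMSO) replicate 1. CRK5 was 2.53-fold higher at 0.25 μM Dex than in P1-12 (+DMSO) (95% interval 1.17 to 5.47, adjusted p = 0.0413, in the fit with the lower filter), a call lost without P1-12 (+DMSO) replicate 1 (log2 fold change 0.83) or without either library at the high dose (1.46 and 1.20). Without P1-12 (+DMSO) replicate 2 the value was 2.12. Against KRAB (+0.25 μM Dex) its log2 fold change was 0.43 (interval −0.51 to 1.37).

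The wide spread of CRK5, CRK6 and CRK13 in the controls had the same direction in each. All 3 were higher in replicate 2 of P1-12 (+DMSO), by 2.47-fold, 10.3-fold and 1.85-fold, and higher in replicate 1 of KRAB (+DMSO), by 3.16-fold, 6.87-fold and 3.82-fold. The directions were the same in CRK14 (1.42-fold and 1.23-fold) and in CRK7, which had few counts. They were also the same in CRK11, CRK28 and CRK36, by at most 1.27-fold, but not in CRK10 or CRK29. PR1 and PR2, salicylic acid-responsive pathogenesis-related genes picked out after their values were seen, differed in the same way, with 0 and 0.73 CPM of PR1 and 0.87 and 14.1 CPM of PR2 in P1-12 (+DMSO) replicates 1 and 2, and 2.91 and 0 CPM of PR1 and 2.29 and 0.49 CPM of PR2 in KRAB (+DMSO) replicates 1 and 2. PR5, another such gene, had 9.51 and 9.46 CPM in P1-12 (+DMSO) and 12.3 and 8.88 CPM in KRAB (+DMSO). Their part in the spread of the CRK genes was not tested.

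CRK10 and CRK11 had their highest levels at the low dose. CRK11, a gene known to be induced by pathogens and salicylic acid, had 15.1 and 18.1 CPM in P1-12 (+DMSO), 22.8 and 26.5 CPM at 0.025 μM Dex, and 14.2 and 17.0 CPM at 0.25 μM Dex. KRAB had 14.8 and 15.5 CPM with 0.25 μM Dex and 13.7 and 12.9 CPM with DMSO. Only the 2 low-dose libraries stood above the rest. CRK11 was 1.48-fold higher at 0.025 μM Dex than in P1-12 (+DMSO) (95% interval 1.23 to 1.79, adjusted p = 0.0127) and fell at 0.25 μM to 0.639 times its level at 0.025 μM (0.526 to 0.776, adjusted p = 0.000912). The low-dose call was lost without P1-12 (+DMSO) replicate 1 (log2 fold change 0.43) or P1-12 (+0.025 μM Dex) replicate 2 (0.45), whereas the fall between doses kept its call in all 10 alternatives (−0.78 to −0.53).

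CRK10 had 25.6 and 32.2 CPM in P1-12 (+DMSO), 35.5 and 38.9 CPM at 0.025 μM Dex, and 25.6 and 29.1 CPM at 0.25 μM Dex. KRAB had 23.1 and 27.8 CPM with 0.25 μM Dex and 22.6 and 24.3 CPM with DMSO. As with CRK11, the low-dose libraries were the highest of the 10, a separation found in 2.3% of all 16721 tested genes. The libraries of KRAB (+DMSO) lay below those of the other P1-12 groups. CRK10 fell at 0.25 μM to 0.738 times its level at 0.025 μM Dex (0.612 to 0.891, adjusted p = 0.0102), a call lost without P1-12 (+0.025 μM Dex) replicate 2 (log2 fold change −0.37) or P1-12 (+0.25 μM Dex) replicate 1 (−0.35). At 0.025 μM Dex against P1-12 (+DMSO) it was 0.37 (SE 0.12, adjusted p = 0.0908), and this passed without P1-12 (+DMSO) replicate 2 (0.53, adjusted p = 0.049, over alternatives from 0.00573 to 0.551) and with no filter (0.38). At the high dose both genes were near their DMSO level, with intervals of −0.35 to 0.20 for CRK10 and −0.37 to 0.21 for CRK11.

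CRK14 had 3.33 and 4.73 CPM in P1-12 (+DMSO), 4.40 and 4.55 CPM at 0.025 μM Dex, and 4.06 and 3.24 CPM at 0.25 μM Dex. KRAB had 4.29 and 4.06 CPM with 0.25 μM Dex and 6.35 and 5.15 CPM with DMSO, the 2 highest of all libraries. No comparison passed the test, and at 0.25 μM Dex against P1-12 (+DMSO) the log2 fold change was −0.14 (interval −0.66 to 0.37).

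**Figure D3:**
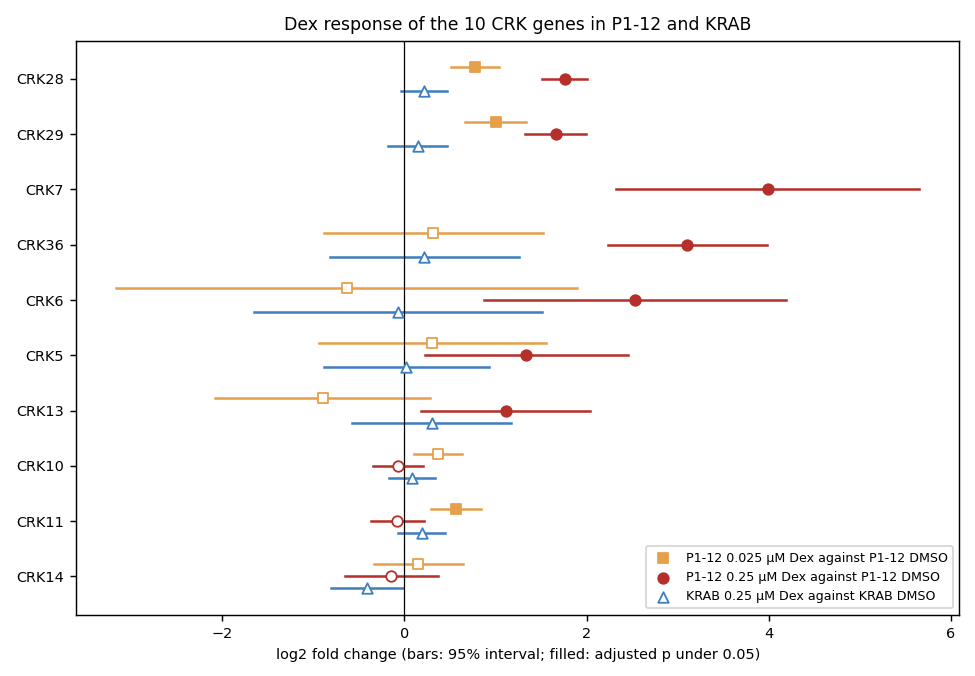
Log2 fold changes of the 10 CRK genes, with 95% intervals, at 0.025 μM and 0.25 μM Dex in P1-12 and at 0.25 μM Dex in KRAB, each against DMSO in the same line; filled symbols have an adjusted p under 0.05, and CRK7 is drawn for 1 comparison only, since the others rest on 5 counts or fewer in each group. CRK28 and CRK29 rise with dose at 0.78 and 1.76 and at 1.00 and 1.66, and all KRAB symbols are open.

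Counted by comparison, 3 of the 6 genes tested with the study's filter (CRK13, CRK28 and CRK29) were higher and 0 lower in P1-12 at 0.25 μM Dex than with DMSO, while the shares over all 16721 tested genes were 28.3% higher and 29.2% lower. Their median log2 fold change was 0.52, against −0.0023 over all tested genes. With the lower filter, 7 of 10 were higher and 0 lower, beside 27.2% and 26.6% of 20742 genes, a count that includes CRK7, which passed only through the group where it was high. No gene was lower at an unadjusted p under 0.05 with either filter. Among the 6 genes tested with the study's filter, DESeq2 called 2 higher and 0 lower. In 6 of the 10 genes both high-dose libraries lay above all 8 others, as they did in 27.7% of the 20742 genes. The 10 genes were chosen with earlier results of these data known. The counts here and in the comparisons below are therefore not those of an unselected set.

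At 0.025 μM Dex, 3 of 6 (CRK11, CRK28 and CRK29) were higher than in P1-12 (+DMSO) and 0 lower, against shares over all tested genes of 4.55% higher and 3.46% lower, and 4 of 6 had an unadjusted p under 0.05. DESeq2 also called 3 higher and 0 lower. The median was 0.47, against 0.0016 over all tested genes. CRK13 had −0.90 (SE 0.55, adjusted p = 0.40), which was called lower only with no filter (−0.89, adjusted p = 0.0172, over alternatives from 0.0172 to 0.846). The comparisons of both doses use the same P1-12 (+DMSO) libraries and are not independent.

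Between the doses, 3 genes (CRK13, CRK28 and CRK29) were higher and 2 (CRK10 and CRK11) lower at 0.25 μM than at 0.025 μM Dex, against shares over all tested genes of 24.1% higher and 26.4% lower. Against KRAB at 0.25 μM Dex, 2 of 6 (CRK28 and CRK29) were higher in P1-12 and 0 lower, where 29.2% and 30.9% of tested genes were, with 0 lower at an unadjusted p under 0.05 or with DESeq2. CRK10, CRK11 and CRK14 had 0.14, 0.06 and −0.21 in that comparison, with intervals of −0.13 to 0.40, −0.22 to 0.34 and −0.68 to 0.26.

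In KRAB, 0.25 μM Dex gave no call among the 6 genes or, with the lower filter, among the 10, against shares over all tested genes of 2.06% higher and 0.813% lower. The values ran from −0.41 (CRK14) to 0.30 (CRK13), 1 of the 6 had an unadjusted p under 0.05 (CRK14), and DESeq2 called 0. Leaving out KRAB (+DMSO) replicate 1 gave 2 calls, CRK13 (1.29) and CRK29 (0.47). Between the untreated lines, P1-12 (+DMSO) against KRAB (+DMSO), 0 of 6 passed, with values from −0.48 (CRK14) to 0.33 (CRK11), 3 of 6 at an unadjusted p under 0.05 and 0 with DESeq2, and the shares over all tested genes were 0.012% higher and 0% lower.

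The Dex response at 0.25 μM was itself compared between the lines. It was larger in P1-12 than in KRAB for CRK28 by 1.54 on the log2 scale (SE 0.16, adjusted p = 4.32e-06), for CRK29 by 1.51 (SE 0.22, adjusted p = 5.91e-05) and, with the lower filter, for CRK36 by 2.89 (SE 0.67, adjusted p = 0.00295). These calls held in every alternative run. Of all tested genes, 22.9% had a response called higher and 25.1% one called lower in P1-12. For CRK6 the difference was 2.60 (SE 1.09, adjusted p = 0.0674), for CRK5 1.32 (SE 0.67, adjusted p = 0.131) and for CRK13 0.81 (SE 0.60, adjusted p = 0.283), and for all 3 leaving out KRAB (+DMSO) replicate 2 gave a call (3.79, 2.11 and 1.74), as did testing with no filter (2.60, 1.31 and 0.87). CRK6 also gained one without P1-12 (+DMSO) replicate 2 (4.97) and with DESeq2 (2.85). For CRK7 the difference was 3.43 with the lower filter, the largest of the 10 genes. It was not called and rests on very few counts in KRAB.

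The order of the levels changed with dose. Per kilobase of annotated exon, CRK29 was the most abundant of the 10 in each group, at 15.3 ± 1.22 CPM per kb in P1-12 with DMSO, 30.7 ± 3.75 at 0.025 μM Dex and 48.3 ± 1.73 at 0.25 μM Dex (mean ± SD, n = 2). In the 4 groups other than P1-12 (+0.25 μM Dex) the next were CRK10, CRK11, CRK28 and CRK14, in that order. At 0.25 μM Dex CRK28, at 14.0 ± 1.69 CPM per kb, stood above CRK10 (10.7 ± 0.974) and CRK11 (6.18 ± 0.782), and CRK36 (2.14 ± 0.48) and CRK14 (1.85 ± 0.291) did not differ beyond their spread, nor did CRK7 (1.47 ± 0.492) and CRK5 (1.45 ± 0.176). In P1-12 (+DMSO) the 3 lowest, CRK36 (0.248), CRK6 (0.172) and CRK7 (0.0912), differed from each other by less than the SD of CRK6 (0.20).

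Of the 33 other CRK genes, 15 passed the study's filter, and at 0.25 μM Dex against P1-12 (+DMSO) 6 were higher and 4 lower, with a median of 0.32, beside 28.3% higher and 29.2% lower over all tested genes. CRK3 (1.25, SE 0.08), CRK17 (1.10, SE 0.15), CRK34 (1.06, SE 0.17) and CRK19 (0.81, SE 0.09) rose most, and CRK41 fell by 2.05 (SE 0.25), CRK42 by 1.74 (SE 0.25), CRK21 by 1.10 (SE 0.15) and CRK40 by 0.42 (SE 0.09). Within the chromosome 4 cluster, CRK21, which was lower, lies among neighbours such as CRK19, which was higher. At 0.025 μM Dex 1 of the 15 was higher and 0 lower, beside 4.55% and 3.46% over all tested genes. Of 8 genes for plasmodesmata-located proteins (PDLPs), which also carry DUF26 domains, 6 were tested, and 4 were higher (PDLP8 0.88, SE 0.21 and PDLP3 0.68, SE 0.10 among them) and PDLP2 lower (−1.12, SE 0.12) at the high dose, beside the same 28.3% and 29.2% over all tested genes.

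**Figure D4:**
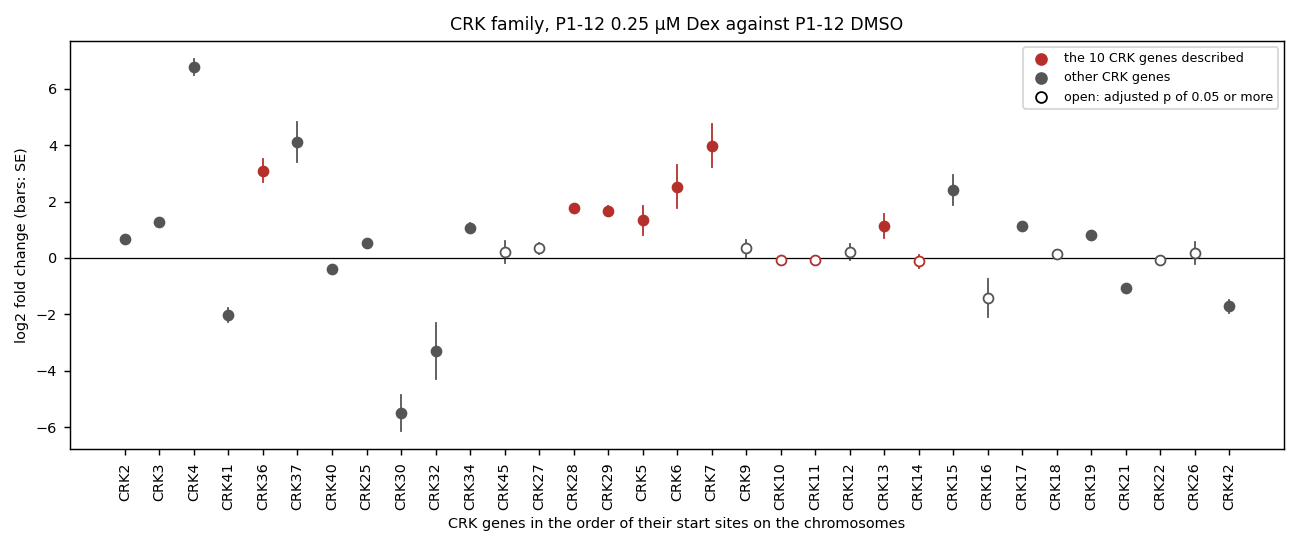
Log2 fold changes, with SE, of 33 CRK genes in P1-12 (+0.25 μM Dex) against P1-12 (+DMSO) with the lower filter, in the order of their start sites, the 10 genes described in red; CRK39 is left out because its controls have no counts. Filled points have an adjusted p under 0.05, and among the red points the 7 filled ones lie above 0 and the 3 open ones (CRK10, CRK11 and CRK14) near it. Of all 20742 genes in this fit 27.2% were higher, and CRK7 passed the filter only through the group where it was high.

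Genes that act beside CRKs in immune signalling were described from lists. Of 19 genes of pattern-triggered immunity, 17 were tested and 11 were higher and 2 lower at 0.25 μM Dex, with a median of 0.49. For this and the lists that follow, the shares over all tested genes were 28.3% higher and 29.2% lower at 0.25 μM Dex, 4.55% and 3.46% at 0.025 μM Dex, and 27.2% and 26.6% at 0.25 μM Dex with the lower filter. RBOHD, the NADPH oxidase of the oxidative burst, was higher by 2.42 (SE 0.12) and the receptor-associated kinase BIK1 by 2.08 (SE 0.09), while the flagellin receptor FLS2 fell by 1.50 (SE 0.14) and the Pep receptor PEPR1 by 0.26 (SE 0.09). Of 20 salicylic acid genes, 12 were tested and 8 were higher and 0 lower, with a median of 0.64. PR5 was higher by 3.29 (SE 0.15) and the transcription factor WRKY18 by 2.75 (SE 0.14), against 0.56 (SE 0.10) for EDS1, a regulator upstream of salicylic acid, and 0.36 (SE 0.10) for its co-activator NPR1. At 0.025 μM Dex 4 of the 17 and 3 of the 12 were higher and none was lower. Root markers, with 2 higher and 2 lower of 12, had a median of 0.0066, and shoot markers, with 3 higher and 2 lower of 7, one of 0.23. With the lower filter, 13 of 20 salicylic acid genes were higher and 1 lower, and shoot markers had 3 higher and 6 lower of 12 with a median of −0.67. In KRAB, 0.25 μM Dex gave 2 higher and 0 lower of the 17 immunity genes with the study's filter. Of the 12 salicylic acid genes it gave 0 in either direction, beside 2.06% higher and 0.813% lower over all tested genes. With the lower filter it gave 3 higher and 0 lower of 19 immunity genes. Of 20 salicylic acid genes it then gave 1 higher and 1 lower, with log2 fold changes in the list from −2.39 to 3.56. No share over all genes is given for KRAB with that filter. RBOHD averaged 76.5 CPM in KRAB (+0.25 μM Dex), against 43.3 CPM in KRAB (+DMSO).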

How the data were processed

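Paired-end RNA-seq was done on total RNA of whole seedlings. Reads were trimmed (Trimmomatic) and mapped by TopHat2 on the TAIR10 build, and the authors deposited raw counts per locus from HTSeq, with no normalization. Tool versions and the strand and multiple-mapping settings are not given in the sources used here. Each of the 10 count columns was matched to a sample by its label.

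Counts were scaled by TMM and tested in edgeR 4.0.16 (R 4.3.3; glmQLFit and glmQLFTest, Benjamini-Hochberg adjustment over all tested genes) in 1 model of the 5 groups. The study's filter of CPM above 2 in at least 9 libraries kept 16721 genes and 6 of the 10 CRK genes. The other 4 were tested with CPM above 0.5 in at least 2 libraries (20742 genes). A call is an adjusted p under 0.05. CPM use TMM-scaled library sizes. The fit was tested on simulated data. Alternatives were DESeq2 1.42.0, RLE scaling, no filter, only the compared groups, a replicate block, and leaving out each library.

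The genes and the lists were chosen with earlier results of these data known. Named were the 10 genes, MORF2, the 4 largest and 4 smallest changes among called other CRK genes, the 2 largest and 2 smallest in the PDLP, immunity and salicylic acid lists (PDLP2 was the only PDLP gene called lower), and the 5 genes most like CRK28. Promoters, positions and coding sequences came from RefSeq TAIR10.1, and identity was computed on coding sequences in place of proteins.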

Additional observations from a re-analysis of the deposited data

Results flagged for a closer look

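The Dex response at 0.25 μM differed between P1-12 and KRAB by the interaction test in edgeR for 3 of the 10 CRK genes. Of all genes tested with the study's filter, 22.9% had a response called higher and 25.1% one called lower in P1-12. The difference, P1-12 minus KRAB on the log2 scale, was 1.54 for CRK28, 1.51 for CRK29 and 2.89 for CRK36. In each, both P1-12 (+0.25 μM Dex) libraries were above both P1-12 (+DMSO) libraries. The response in KRAB was 0.22, 0.15 and 0.22 and was not called in the main fit. Without KRAB (+DMSO) replicate 1 the KRAB response of CRK29 was 0.47 and gained a call. CRK36 was tested only with the lower filter.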

How the results depend on the processing

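Of 148 counts of called CRK genes recomputed under the alternatives, 137 stayed within 1.5 times the reported count. With no filter, 7 genes were higher at 0.25 μM Dex than with DMSO in P1-12, 7 than at 0.025 μM, 6 than in KRAB with Dex and 6 in the difference between the lines, and 1 was lower at 0.025 μM Dex. With CPM above 0.5 in at least 2 libraries these were 7, 6 and 5 for the first 3. More genes are tested under both, which adds CRK5, CRK6, CRK7 and CRK36. CRK7 passed the lower filter only through the group where it was high. With that filter 27.2% of all tested genes were higher in the first comparison. No other share over all genes is given for these fits, so the other counts cannot be set against one. Leaving out 1 library gave 1 to 2 genes lower between the doses and 0 to 2 higher in KRAB with Dex.

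Of 558 single-gene values, 504 kept direction and call, 19 lost a call, 18 gained one and 17 changed sign, all of them uncalled values on leaving out 1 library. At 0.25 μM Dex against P1-12 (+DMSO) these ran from −0.23 to 0.10 (CRK10), −0.21 to 0.055 (CRK11) and −0.38 to 0.13 (CRK14). At 0.025 μM they ran from −0.20 to 1.08 (CRK5), −1.50 to 1.73 (CRK6), −0.091 to 0.42 (CRK14) and −0.52 to 0.82 (CRK36). Against KRAB with Dex they ran from −0.012 to 0.25 (CRK10) and −0.076 to 0.18 (CRK11). In KRAB they ran from −0.63 to 1.29 (CRK13), −0.18 to 0.47 (CRK29) and −0.0019 to 0.44 (CRK36). In the difference between the lines they ran from −0.31 to 0.021 (CRK10) and −0.18 to 1.74 (CRK13). Among further uncalled values, which the text does not give one by one, 15 changed sign, 7 of them between the untreated lines, and 2 of the 15 with DESeq2. The cause was not tested.

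The replicate numbers share only a number: in 10 pairs of groups, deviations of same-numbered libraries had correlations of −0.13 to 0.07. With a replicate block, 67 of 68 values and counts kept their call, and CRK10 at 0.025 μM Dex (0.37, adjusted p = 0.0273 in edgeR) gained one. Depth limits CRK7, with 0 to 5 counts in 8 libraries.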

Other observations

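Outside the 10 genes, a few CRK genes below the study's filter had the widest ranges of the family. They were chosen after their values were seen and were tested with the lower filter. CRK4 (AT3G45860), on chromosome 3, had 0.48 and 0.33 CPM in P1-12 (+DMSO), 3.32 and 2.91 CPM at 0.025 μM Dex, and 44.8 and 43.4 CPM at 0.25 μM Dex, and 1.23 and 1.24 CPM in KRAB (+0.25 μM Dex), against 0.18 and 0.87 CPM in KRAB (+DMSO). Its log2 fold change was 6.77 (SE 0.28) at the high dose and 2.93 (SE 0.43) at the low dose, with edgeR adjusted p of 2.56e-10 and 0.000769.

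CRK30 went the other way. It had 12.3 and 6.36 CPM in P1-12 (+DMSO), 8.11 and 6.46 CPM at 0.025 μM Dex, and 0.21 and 0.19 CPM at 0.25 μM Dex, where each library had 2 counts. Its change at the high dose was −5.50 on the log2 scale (SE 0.64, edgeR adjusted p = 5.12e-06). In KRAB it had 6.73 and 5.56 CPM with 0.25 μM Dex and 12.1 and 6.58 CPM with DMSO. CRK37, which neighbours CRK36 in the order of CRK genes on chromosome 4, had 21 and 38 counts at 0.25 μM Dex and 0 to 4 counts in each of the other 8 libraries.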
